A study of Mus musculus with 5 samples.

Results

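Sox10, Ednrb, Bace2, Kit, S100b, Ngfr, Axl, Met and Sox9 are genes by which melanoma cells are placed between a pigmented, a neural crest and a dedifferentiated state. These 9 genes were chosen by name from what is known of melanoma, with earlier results of these data known. All 9 were measured, each by 1 probe set, among the 22203 probe sets of the array and the 19505 genes those sets name. Expression was measured in 5 subcutaneous melanomas, each from its own mouse, on 1 Affymetrix Clariom S array per tumour. They had been grown from injected B16.F10 cells, a line of C57BL/6 mouse melanoma engineered to carry luciferase and green fluorescent protein, in wild-type C57BL/6 mice aged 10 weeks. All mice received an antibody against PD-1, a receptor that restrains T cells, on days 1, 4 and 8 after injection of the melanoma cells. The 3 RG7112 tumours (replicates 1, 2 and 3) came from mice that were also given RG7112, an oral inhibitor that keeps MDM2 from binding p53. The 2 vehicle tumours (replicates 3 and 4) came from mice given corn oil with 5% DMSO in its place. Dosing was every 2 days for 6 days, and tumours were taken on day 13. No mouse was without anti-PD-1, so the comparison shows RG7112 only on top of that antibody, and all tumours derive from 1 cell line.

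Neural crest cells are embryonic migratory cells that give rise to melanocytes, Schwann cells and other lineages. SOX10 keeps cells in the crest and melanocyte lineage, KIT and EDNRB are receptors that melanocyte precursors need to survive and migrate, and S100B and NGFR mark crest-derived cells. Melanoma cells can lose pigment cell features and shift towards a crest-like or an undifferentiated state, the second of which is known for high AXL in human melanoma and is linked to resistance to therapy. The tumours are mixtures of melanoma and other cells, and several of these genes are also made by macrophages (Axl), mast cells (Kit), endothelium (Ednrb), Schwann cells (Sox10, S100b, Ngfr) or skin epithelium (Sox9). In such bulk RNA, fewer cells of a type and less RNA per cell cannot be told apart.

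The tumours carried the label's cell type in their RNA. The 13 melanocyte differentiation genes had a mean log2 signal of 11.14 to 11.19 in the RG7112 tumours and 11.01 to 11.08 in the vehicle tumours, with 0 of these 13 genes below the array medians of 5.76 to 5.81. Array distributions were alike, which the quantile normalization of the deposited values brings about by itself. RG7112 replicate 1 stood out most, with an upper quartile of 7.85 against 7.72 to 7.76 in the other arrays. Correlations across probe sets were 0.983 to 0.992 between arrays (probe sets are not independent replicates). Over all probe sets, limma called 315 higher and 7 lower in RG7112 tumours at an adjusted p under 0.05, and the median difference was -0.027 on the log2 scale. Of 15 measured p53 target genes 0 were called by limma, while at an unadjusted p under 0.05 there was 1 higher (Plk2) and 1 lower (Sesn2). Mdm2 differed by 0.34 ± 0.21 (SE) and Cdkn1a by -0.11 ± 0.17.

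Axl is a receptor tyrosine kinase of the TAM family (Tyro3, Axl, Mertk), a family whose ligands are Gas6 and protein S. Axl was the member that rose. Met, the receptor for hepatocyte growth factor, was the other receptor kinase whose RG7112 tumours all lay above both vehicle tumours. The promoter windows of these receptor genes are shown because they differ in the motifs they hold, from 250 bases before to 50 bases after the annotated start, from RefSeq on build GRCm38.p6. Axl lies on the minus strand at chr7:25788684-25788983 and Met on the plus strand at chr6:17463707-17464006. Both are written 5′ to 3′ in the gene's direction, and capitals mark every match, on either strand, to the motifs CACGTG and CATGTG (E-boxes that MITF can bind), ACAAAG and ACAATG (SOX factors), TGACTCA (AP-1) and GGGCGG (GC box).
Axl: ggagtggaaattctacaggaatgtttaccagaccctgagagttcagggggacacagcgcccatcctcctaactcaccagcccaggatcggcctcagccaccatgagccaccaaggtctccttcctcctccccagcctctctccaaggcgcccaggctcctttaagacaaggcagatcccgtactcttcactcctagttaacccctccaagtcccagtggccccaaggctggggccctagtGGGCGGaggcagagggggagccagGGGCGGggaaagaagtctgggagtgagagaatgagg
Met: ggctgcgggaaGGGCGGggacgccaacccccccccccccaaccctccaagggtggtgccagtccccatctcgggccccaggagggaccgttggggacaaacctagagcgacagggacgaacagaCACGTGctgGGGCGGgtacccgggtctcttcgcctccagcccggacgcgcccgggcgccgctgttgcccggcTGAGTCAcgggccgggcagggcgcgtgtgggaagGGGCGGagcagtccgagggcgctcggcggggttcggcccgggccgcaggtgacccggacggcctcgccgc

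The Axl window held 2 GC boxes and none of the other 5 motifs. The Met window held 3 GC boxes, 1 E-box (CACGTG) and 1 AP-1 match, written there as the reverse complement TGAGTCA. Among 32851 promoter windows of the table, 35.7% held the GC box, 7.15% held CACGTG and 5.20% held the AP-1 motif. None of these matches overlapped. Windows were found for 6 of the 9 members (7 windows, 2 of them for Kit), and Bace2, Sox9 and Sox10 were not among them. The 2 Kit windows overlap almost fully (starts 75574737 and 75574741) and held the same 1 GC box. The Ngfr window held 4 GC boxes, and those of Ednrb and S100b held none of the 6 motifs. A match describes the letters only, and no binding was measured here.

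The comparison of RG7112 with vehicle asked how the state genes of melanoma differed when MDM2 inhibition was added to anti-PD-1. Of the 9 members 1 rose (Axl), 0 fell and 8 did not pass in limma, against 1.42% of all probe sets called higher and 0.0315% called lower. At an unadjusted p under 0.05 in limma, 4 members were higher (Axl, Bace2, Ednrb and Kit) and 0 lower, against 4.83% and 4.06% of all probe sets. The RG7112 tumours all lay above the vehicle tumours for 4 members (Axl, Bace2, Ednrb and Met) and all below for 1 (S100b), against 10.8% and 14.0% of all probe sets. All differences are RG7112 minus vehicle in log2 signal, given with their SE from limma. On simulated data for this comparison 1.60% of changes of 0.5 and 64.4% of changes of 1 were recovered. A difference near 0.5 could therefore seldom pass. The median difference over the 9 members was 0.35 on the log2 scale, beside -0.027 over all probe sets.

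**Figure D1:**
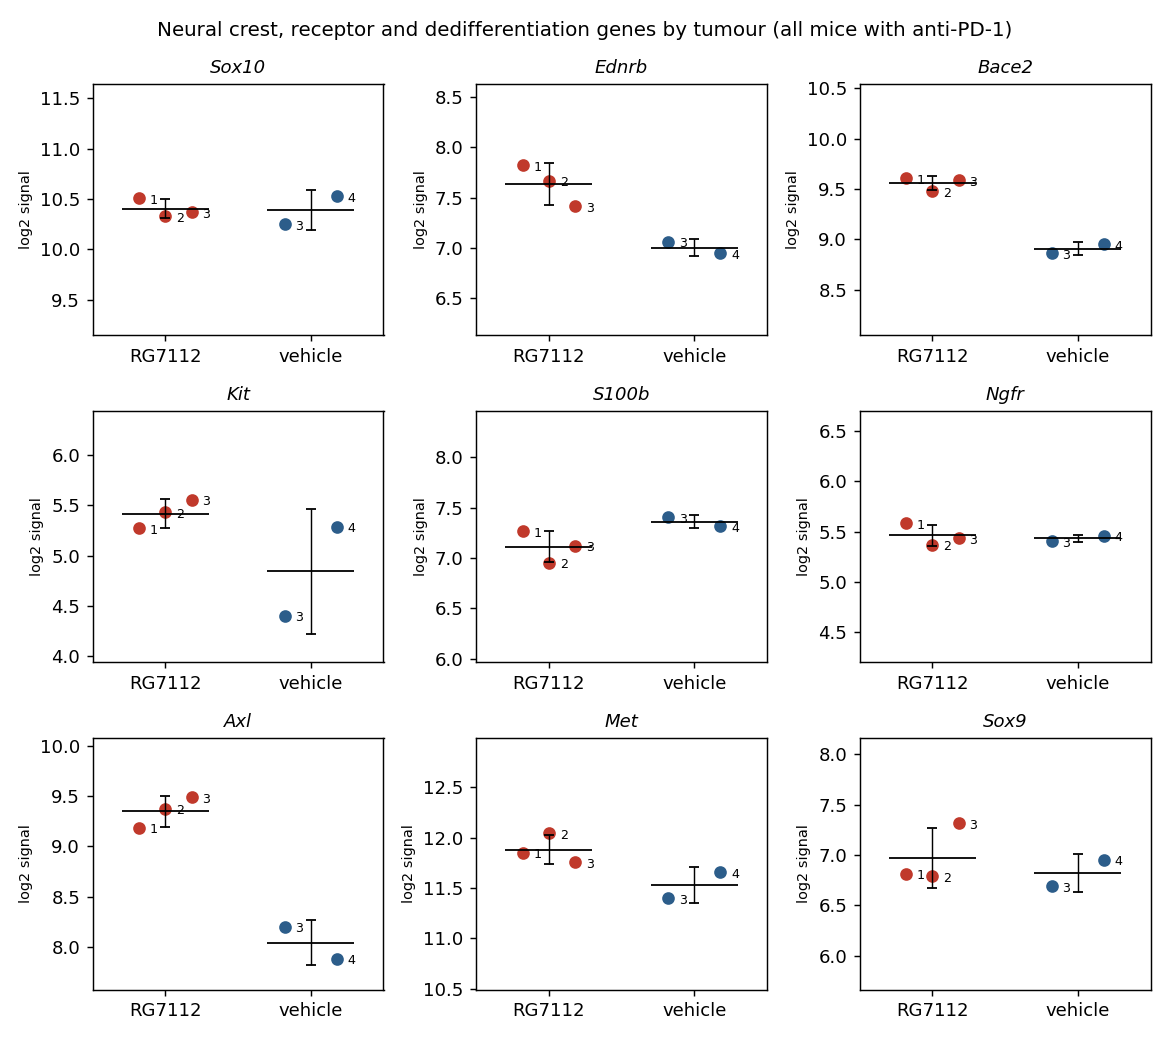
Log2 signal (y axis) of each of the 9 genes in the 3 RG7112 tumours (red) and the 2 vehicle tumours (blue), with replicate numbers beside the points; lines are group means and bars 1 SD. All panels span the same log2 range. The groups lie apart for Axl, Bace2, Ednrb, Met and S100b and overlap for the other 4 genes.

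Among the receptors, Axl had log2 signals of 9.19, 9.37 and 9.49 in the RG7112 tumours, against 8.20 and 7.89 in the vehicle tumours. Every RG7112 tumour lay above both vehicle tumours, by 0.98 or more. Axl averaged 9.35 ± 0.15 (SD, n = 3) with RG7112 and 8.04 ± 0.22 (SD, n = 2) with vehicle. It rose by 1.30 ± 0.17 (SE) on the log2 scale, or 2.47-fold, with a 95% interval of 0.92 to 1.68 and a limma adjusted p of 0.00269. Only 0.694% of all probe sets had a difference of larger size. The call held without each RG7112 tumour (1.24 to 1.39, limma adjusted p = 0.00387 to 0.0154) and without vehicle replicate 3 (1.46). It was lost without vehicle replicate 4 (1.15). The fits without vehicle replicate 3 or 4 each rest on 1 vehicle tumour, and in both fewer probe sets were called over the whole array.

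Markers of macrophages and monocytes differed between the same tumours. Of 13 measured markers 9 rose and 0 fell in limma, with a median difference of 1.34, and their mean log2 signal was 7.62 to 8.01 in the RG7112 tumours and 6.29 to 6.69 in the vehicle tumours. The mean of these markers thus shifted by 1.31, beside 1.30 for Axl. Aif1, which macrophages use in remodelling actin, rose by 2.57 ± 0.20, the macrophage receptor Adgre1 by 1.58 ± 0.18, the monocyte marker Ly6c2 by 2.03 ± 0.26 and the IgG receptor Fcgr1 by 1.34 ± 0.17. Of these 4, Aif1 alone kept its call when each tumour was left out in turn, and the others lost it without vehicle replicate 4 (adjusted p = 0.0574, 0.0666 and 0.0846). The part of these markers in the Axl difference was not tested. Relative to the mean of the melanocyte differentiation genes in each tumour, Axl was higher by 1.18 (limma adjusted p = 0.00987). That scaling took the same amount from every probe set of a tumour, so Axl and the macrophage markers moved together under it. The mean of the melanocyte differentiation genes was itself higher by 0.12 with RG7112, and the median over all probe sets became -0.15.

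The relatives of Axl and the ligands of the TAM family were read beside it. Mertk, the TAM receptor with which macrophages clear dying cells, had 5.72, 5.26 and 5.20 in the RG7112 tumours, against 4.64 and 5.01 in the vehicle tumours. The groups lay apart, but the difference of 0.57 ± 0.20 (SE) did not pass (limma adjusted p = 0.350). Tyro3, which is known in melanoma for raising MITF in human cells, had 6.59, 5.77 and 6.08 with RG7112 and 6.31 and 6.44 with vehicle, so its groups overlapped. Gas6, a ligand of all TAM receptors, had 5.31, 5.22 and 6.82 with RG7112, against 5.12 and 5.20 with vehicle. RG7112 replicate 3 stood far above the other tumours, and the Gas6 difference of 0.62 ± 0.38 did not pass (limma adjusted p = 0.725). Pros1, which encodes protein S, had 7.95, 7.74 and 7.37 with RG7112 and 7.50 and 7.19 with vehicle, and the groups overlapped. Whether Axl differed from Mertk or Tyro3 in its response was not tested. Of 14 measured relatives of the members 1 rose, 0 fell and 13 did not pass in limma, with a median difference of 0.10. Relative to the melanocyte differentiation genes that median was -0.021, beside -0.15 over all probe sets under the same scaling. The one that rose was Csf1r, a receptor kinase of the same family as Kit and a marker of macrophages, at 1.08 ± 0.17 (limma adjusted p = 0.00722), or 0.92 without vehicle replicate 4 (adjusted p = 0.182).

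**Figure D2:**
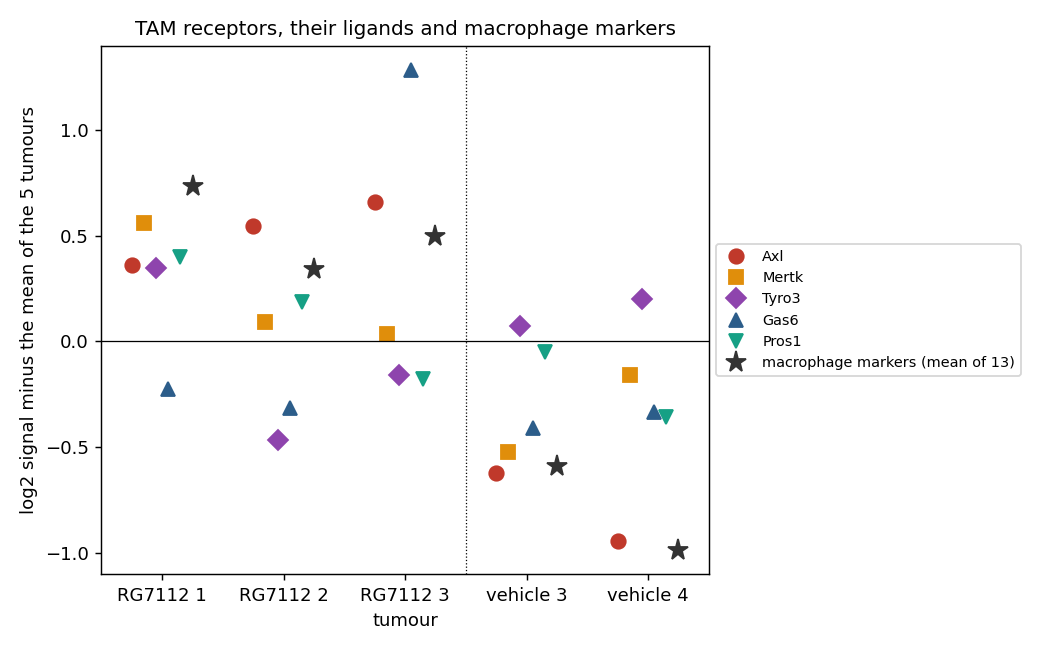
Log2 signal minus the mean of the 5 tumours (y axis) for Axl, the other TAM receptors, their ligands Gas6 and Pros1, and the mean of 13 macrophage markers (stars), by tumour, with RG7112 tumours left of the dotted line. Axl, Mertk and the macrophage mean are above 0 in the 3 RG7112 tumours and below 0 in both vehicle tumours. Tyro3 does not show this split, and Gas6 is high in RG7112 replicate 3.

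Met had 11.85, 12.04 and 11.76 in the RG7112 tumours, against 11.40 and 11.66 in the vehicle tumours. The groups lay apart by only 0.10, between RG7112 replicate 3 and vehicle replicate 4. The difference was 0.35 ± 0.17 (SE), with a 95% interval of -0.016 to 0.72, and did not pass (limma adjusted p = 0.595). Hgf, the ligand of Met, had 4.97, 5.15 and 4.88 with RG7112, against 4.06 and 3.69 with vehicle. Hgf rose by 1.12 ± 0.17 (limma adjusted p = 0.00750) and its signals were below the array medians in all 5 tumours. The Hgf call was lost without vehicle replicate 4 (0.94, adjusted p = 0.186), and Hgf was not tested once dim probe sets were left out.

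Kit, the receptor for stem cell factor on melanocyte precursors and mast cells, had 5.27, 5.43 and 5.55 in the RG7112 tumours, against 4.40 and 5.28 in the vehicle tumours. Vehicle replicate 4 lay among the RG7112 tumours, and vehicle replicate 3 stood apart below them. Kit differed by 0.57 ± 0.23 (SE; limma adjusted p = 0.482), by 0.13 without vehicle replicate 3 and by 1.01 without vehicle replicate 4. All 5 Kit signals were below the array medians. Kitl, the gene of stem cell factor, had 6.18, 6.23 and 6.07 with RG7112, against 5.75 and 5.69 with vehicle, a difference of 0.44 ± 0.15 that did not pass (limma adjusted p = 0.343). Of 13 mast cell markers 0 were called in limma and 0 had an unadjusted p under 0.05. The mean log2 signal of the mast cell markers was 4.63 to 4.73 in the RG7112 tumours and 4.65 to 4.71 in the vehicle tumours, with 11 of these 13 genes below the array medians.

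Ednrb, the endothelin receptor of melanoblasts, had 7.82, 7.67 and 7.42 in the RG7112 tumours, against 7.06 and 6.95 in the vehicle tumours. The groups did not overlap. Its difference of 0.63 ± 0.17 (SE), with a 95% interval of 0.25 to 1.01, did not pass over all probe sets (limma unadjusted p = 0.00369, adjusted p = 0.157). Edn3, the endothelin that acts on melanoblasts, had 3.87, 3.77 and 3.83 with RG7112, against 4.37 and 4.15 with vehicle (-0.44 ± 0.16, limma adjusted p = 0.367). These Edn3 signals were dim, below the array medians in all 5 tumours. Of 11 endothelial markers 1 rose, the VEGF receptor Kdr (1.01 ± 0.19), while 5 were higher and 0 lower at an unadjusted p under 0.05, and in 9 the RG7112 tumours all lay above the vehicle tumours. With 1 tumour left out, the Kdr call held only without RG7112 replicate 1. The mean log2 signal of the endothelial markers was 6.83 to 6.99 in the RG7112 tumours and 6.52 to 6.55 in the vehicle tumours, with a median difference of 0.37. Relative to the melanocyte differentiation genes 0 endothelial markers were called and the median was 0.25, beside -0.15 over all probe sets. Without vehicle replicate 4 the endothelial median was 0.24. The part of endothelial markers in the Ednrb difference was not tested.

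Ngfr, the low-affinity neurotrophin receptor that marks crest-like melanoma cells, had 5.58, 5.37 and 5.43 with RG7112 and 5.41 and 5.46 with vehicle. The groups overlapped, with a difference of 0.030 ± 0.16 (SE) and a 95% interval of -0.31 to 0.37. Its signal was below the array medians in all 5 tumours, which limits what could be seen. Among its partners, Sort1, the sorting receptor that forms a complex with Ngfr, differed by -0.041 ± 0.15. From the same list, Ntrk2 differed by -0.23 ± 0.15, Ntrk3 by 0.39 ± 0.18, Bdnf by -0.026 ± 0.16 and Ntf5 by -0.068 ± 0.16. None of these was called in limma, and they were picked with their values known. Over the whole list of ligands and partners of the member receptors, 1 of 13 measured genes rose (Hgf), 0 fell and 12 did not pass in limma. The median difference of this list was -0.026, and its sign was not stable. It was 0.021 after quantile normalization, 0.027 after cyclic loess, 0.23 without dim probe sets and 0.085 without vehicle replicate 4. Relative to the melanocyte differentiation genes it was -0.15, as was the median over all probe sets.

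Bace2, the protease that cleaves the melanosome protein PMEL in pigment cells, had 9.61, 9.48 and 9.59 in the RG7112 tumours, against 8.86 and 8.95 in the vehicle tumours. Both groups were tight, and they lay 0.52 apart at their nearest values. Bace2 averaged 9.56 ± 0.070 (SD, n = 3) with RG7112 and 8.91 ± 0.065 (SD, n = 2) with vehicle. The difference of 0.65 ± 0.15 (SE), or 1.57-fold, with a 95% interval of 0.31 to 0.99, did not pass (limma unadjusted p = 0.00141, adjusted p = 0.0805). With an intensity trend in the variance model it passed (adjusted p = 0.0195). Its substrate gene Pmel differed by 0.084 ± 0.15, and its relative Bace1, best known as the beta-secretase of neurons, by -0.071 ± 0.15.

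The lineage factors did not separate the groups. Sox10 had 10.51, 10.33 and 10.37 in the RG7112 tumours, against 10.25 and 10.53 in the vehicle tumours, so the vehicle tumours were both the lowest and the highest. Its difference of 0.013 ± 0.16 (SE) had a 95% interval of -0.35 to 0.37, which leaves out changes beyond 1.30-fold up or 1.27-fold down. Sox9, a relative of Sox10 that is high in undifferentiated melanoma and in hair follicle cells, had 6.81, 6.79 and 7.32 with RG7112 and 6.69 and 6.96 with vehicle. RG7112 replicate 3 alone was higher than both vehicle tumours, and the difference was 0.15 ± 0.20 (limma adjusted p = 0.905). Sox8, the other member of the SoxE family, differed by 0.051 ± 0.15. Of 11 keratinocyte and hair follicle markers 0 were called in limma (1 lower at an unadjusted p under 0.05), with 10 of these 11 genes below the array medians.

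S100b, a calcium-binding protein used as a marker of melanoma and Schwann cells, had 7.26, 6.95 and 7.12 in the RG7112 tumours, against 7.41 and 7.32 in the vehicle tumours. It was the only member with a difference below 0, at -0.25 ± 0.16 (SE), and did not pass (limma adjusted p = 0.750). The RG7112 tumours all lay below the vehicle tumours, by as little as 0.051. Of 10 Schwann cell and myelin markers 0 were called in limma, with 1 higher at an unadjusted p under 0.05. That one was Pmp22, a myelin protein that other cells also make, which differed by 0.76 ± 0.16 (limma adjusted p = 0.0520). The list had 1 called gene with an intensity trend, array weights, cyclic loess, dim probe sets left out, 1 probe set per named gene or adjusted p under 0.10. Mean log2 signals of these markers were 6.38 to 6.44 with RG7112 and 6.37 to 6.43 with vehicle.

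**Figure D3:**
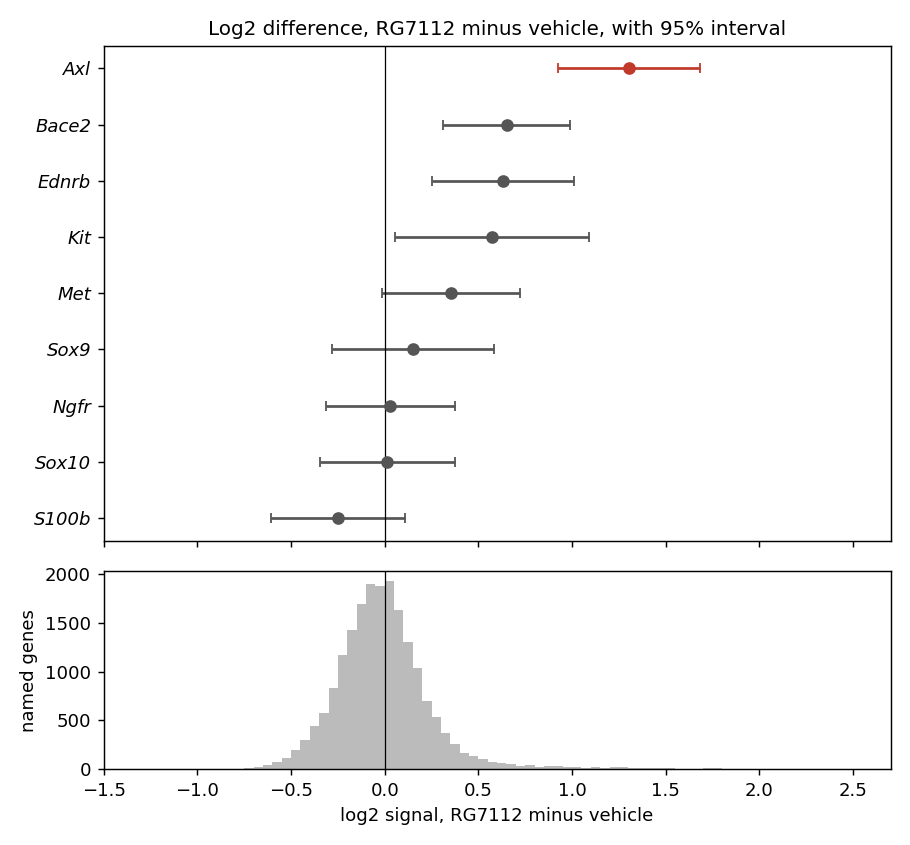
Log2 difference of RG7112 minus vehicle (x axis) for the 9 genes with 95% intervals from limma (top, red where adjusted p is under 0.05) and the distribution of the same difference over all named genes (bottom, number of genes). Axl lies at 1.30, followed by Bace2, Ednrb and Kit between 0.57 and 0.65, while the intervals of Met, Sox9, Ngfr, Sox10 and S100b include 0.

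Other genes of the same states gave the setting. Of 35 other neural crest genes 0 were called in limma, 2 were higher and 3 lower at an unadjusted p under 0.05, and 26 had a difference below 0 (55.2% of all probe sets did), with a median of -0.097. That median was -0.22 relative to the melanocyte differentiation genes (-0.15 over all probe sets under that scaling) and -0.054 without RG7112 replicate 1. Sox2, a factor of crest-derived progenitors and stem cells, had 3.59, 3.75 and 3.62 with RG7112, against 4.45 and 4.15 with vehicle (-0.65 ± 0.16, limma adjusted p = 0.115), all dim signals. Cdh11, a cadherin of mesenchymal and crest cells, differed by 0.48 ± 0.15 (limma adjusted p = 0.276). The crest factors Pax3 and Tfap2a, both bright here, differed by -0.079 ± 0.16 and 0.022 ± 0.16, and Foxd3 by -0.22 ± 0.15.

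Of 31 other genes of dedifferentiated, invasive melanoma 1 rose, 0 fell and 30 did not pass in limma, with a median difference of 0.11. Relative to the melanocyte differentiation genes that median was -0.013, beside -0.15 over all probe sets under the same scaling. The gene that rose was Tgfbi, a matrix protein induced by TGF-beta that macrophages also make, with 8.74, 9.13 and 8.63 in the RG7112 tumours, against 7.61 and 7.14 in the vehicle tumours. Its difference was 1.46 ± 0.20 (limma adjusted p = 0.00368), and it did not pass once vehicle replicate 4 was left out (1.23, adjusted p = 0.121). Fibroblast and pericyte markers, of which 0 of 12 were called in limma (4 higher and 0 lower at an unadjusted p under 0.05), had mean log2 signals of 6.85 to 7.28 with RG7112 and 6.77 to 6.85 with vehicle. Their part in the Axl and Tgfbi differences was not tested.

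On the differentiated side, 0 of 13 melanocyte genes were called in limma (2 higher and 0 lower at an unadjusted p under 0.05), with a median difference of 0.089. Of these 13 genes 11 had a difference above 0 and 2 below, while 55.2% of all probe sets were below. In 4 the RG7112 tumours all lay above the vehicle tumours and in 0 all below, against 10.8% and 14.0% of all probe sets. The mean of the 13 genes, used above for scaling, was 0.12 higher with RG7112. Mitf, the master factor of the lineage, had 11.6 to 11.9 with RG7112 and 11.5 to 11.7 with vehicle, a difference of 0.13 ± 0.17. Tyr, the first enzyme of melanin synthesis, differed by -0.14 ± 0.16, Mlana by 0.24 ± 0.16 and Dct by -0.0027 ± 0.15. Oca2 and Gpr143 had the smallest unadjusted p of the list, with 0.38 ± 0.16 and 0.37 ± 0.16. Receptor kinases such as Axl, Met and Kit can drive the MAPK pathway. Of its 19 measured output genes 0 were called in limma (0 higher and 1 lower, Ier3, at an unadjusted p under 0.05). Of these 19 genes 14 had a difference below 0, beside 55.2% of all probe sets, with a median of -0.067. That median was -0.19 relative to the melanocyte differentiation genes (-0.15 over all probe sets under that scaling). With 1 tumour left out it ran from -0.24 (without vehicle replicate 3) to -0.041 (without RG7112 replicate 2).

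**Figure D4:**
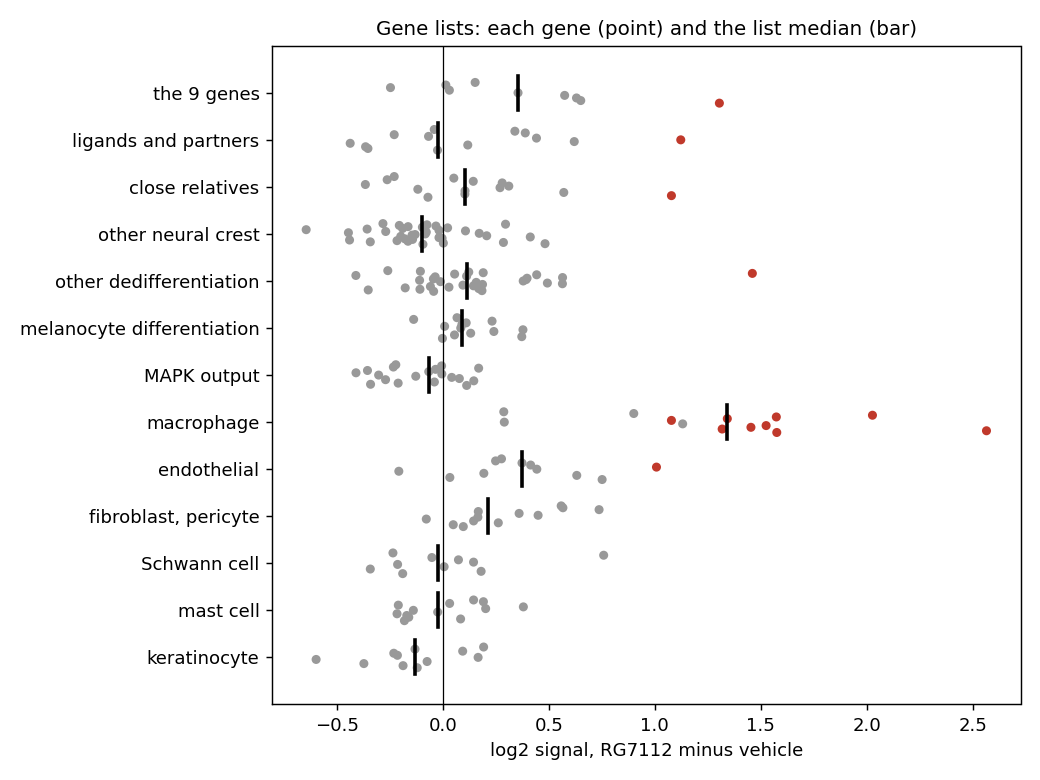
Log2 difference of RG7112 minus vehicle (x axis) for every measured gene of 13 gene lists (points, red where limma's adjusted p is under 0.05), with the list median as a black bar. The macrophage list has 9 called genes and a median of 1.34, while the other lists have 0 or 1 called gene each.

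The members also differed from each other in pattern. By the root mean square difference between log2 values centred on each gene's mean over the 5 tumours, the closest pair of members was Sox10 and Ngfr (0.073), which both varied little, and among the members that varied more Ednrb and Bace2 differed by 0.15. For each of the 6 members whose values spanned at least 0.5, the most alike of 18461 other named genes were found by the same measure. Those of Axl were Dock8, a regulator of the leukocyte cytoskeleton (0.069), and Vcam1, an adhesion molecule of activated endothelium and macrophages (0.078). Those of Ednrb were the phosphatase Ptpre (0.027) and Pdlim1 (0.039), those of Bace2 were Smpdl3b (0.027) and Eogt (0.037), and those of Kit were Sgsm2 (0.076) and Tubgcp3 (0.096). Met was most like Cyb561 (0.044) and Abcd3 (0.044), and Sox9 most like Rfx5 (0.036) and Txndc15 (0.046). With 5 tumours and this many genes, close matches arise easily, and these are given as a description.

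**Figure D5:**
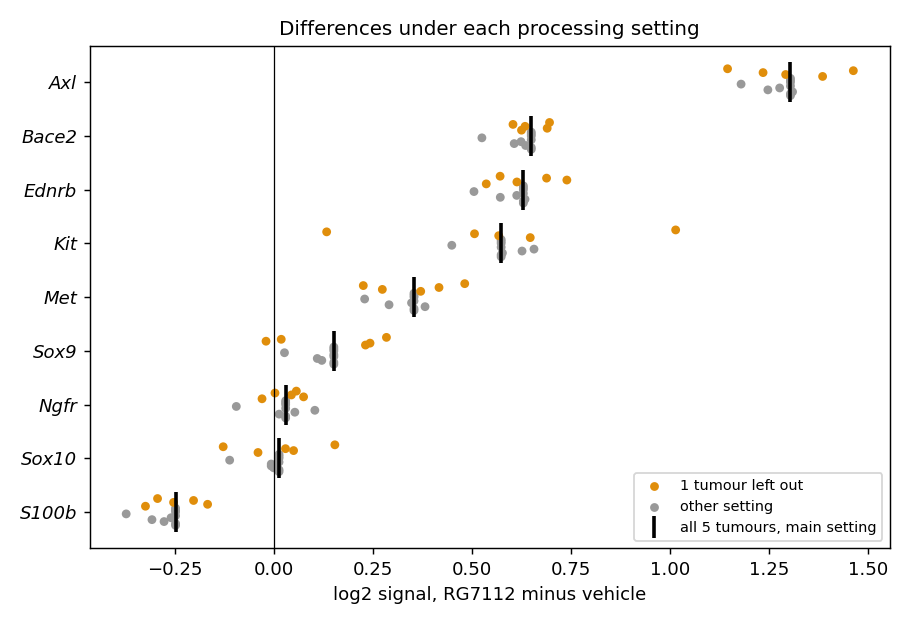
Log2 difference of RG7112 minus vehicle (x axis) for the 9 genes under the main setting (black bars), with 1 tumour left out (orange) and under the other settings (grey). Axl stays between 1.15 and 1.46, Kit spans 0.13 to 1.01 depending on the vehicle tumour left out, and Sox10, Ngfr and Sox9 lie on both sides of 0.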

How the data were processed

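Whole-tumour RNA from 5 tumours was hybridised to 1 array each. The deposited values are log2 signals per probe set, made by the authors with oligo and RMA, per the submitters' processing notes (RMA being a method of background correction, quantile normalization and median polish; versions, options and build: not given in the sources used here). Signals ran from 2.53 to 13.3. No scan or slide data were used here, so batches could not be examined, and the number of arrays limits the precision.

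Platform annotation named 1 gene for 19572 probe sets and none for 2631, several for 0. The highest-mean probe set stood for a gene. RG7112 minus vehicle was fitted on all 22203 probe sets with limma 3.58.1 (lmFit, eBayes) in R 4.3.3, with Benjamini-Hochberg adjustment and calls at adjusted p under 0.05. An exact permutation test of 3 against 2 tumours cannot give a p below 0.1. On simulated data for this comparison (22203 probe sets, 10 sets), 1.60% of changes of 0.5, 64.4% of changes of 1 and 99.4% of changes of 2 on the log2 scale were recovered.

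Members and lists were chosen with earlier results of these data known. Genes named were the members, a fixed set (melanocyte, crest, ligand and relative genes), up to 4 called members of each list or else its 2 smallest p, and the 2 genes most like each member. Bace1, Sort1, Ntrk2, Ntrk3, Bdnf and Ntf5 fall outside that rule and were picked with their values known. The rule was not carried out in full. The mast cell, fibroblast and keratinocyte lists are given without gene names, and the MAPK output and Schwann cell lists with only the smallest p. Listed genes with no named probe set were not analysed here. Alternatives were the variance model, array weights, normalization, a filter on dim probe sets (below the 40th percentile of means), scaling to melanocyte genes, the threshold, the probe choice and each tumour left out.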

Additional observations from a re-analysis of the deposited data

How the results depend on the processing

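Under 15 alternative settings Axl was higher in all and called in 14. Bace2 was called in 2, with an intensity trend and at adjusted p under 0.10, and the other 7 members in none. The number of members called higher was therefore 2 under each of those 2 settings. Axl was not called without vehicle replicate 4, a fit that leaves 1 vehicle tumour, as does the fit without vehicle replicate 3, where it was called. The median over the members was 0.23 relative to the melanocyte genes, a scaling that moved the median of all probe sets to -0.15, and 0.13 to 0.48 with 1 tumour left out. Sox10 turned below 0 with array weights (-0.00013), quantile normalization (-0.0064), cyclic loess (-0.0063) and relative to the melanocyte genes (-0.11), and ran from -0.13 to 0.15 with 1 tumour left out. Ngfr was at -0.095 relative to the melanocyte genes and ran from -0.030 to 0.075 with 1 tumour left out, and Sox9 from -0.020 to 0.28. Over all probe sets, those called lower numbered 16 with array weights, 4 with cyclic loess, 2 without dim probe sets, 23 relative to the melanocyte genes, 29 at adjusted p under 0.10, and 0 to 5 with 1 tumour left out, and those called higher 65 to 268 with 1 tumour left out. The causes were not tested. A lone vehicle tumour was assumed to vary like the RG7112 tumours. No paired analysis was made, because the labels give no pairing of mice between the groups. Dim signals limit Kit, Ngfr, Hgf, Edn3 and Sox2.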
